A study of Homo sapiens with 15 samples.

Results

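The 31 genes described here are targets and feedback regulators of the transcription factor p53, chosen by name from a table of 60670 genes. Each symbol matched 1 gene of the table, and all 31 passed the filter on low counts. They were grouped by known role: 6 genes of negative feedback on p53, 5 cell-cycle and damage-response kinases and brakes, 5 of DNA repair and nucleotide supply, 6 of metabolism, redox, mitochondria and autophagy, 7 of cell death and survival, and 2 others. CDKN1A, the p53 target that encodes the cyclin-dependent kinase inhibitor p21, is not among the 31 and is given with the other p53 targets.

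p53 is a tetrameric transcription factor that is kept low by the ubiquitin ligase MDM2 and is stabilised when DNA damage kinases signal. It binds pairs of short half-sites in DNA and activates genes for cell-cycle arrest, DNA repair, metabolism and cell death, and also MDM2 itself, which closes a feedback loop. Telomeres that lose their protective cap are read as broken DNA ends, so this pathway is one of the routes by which cells with uncapped telomeres stop dividing and enter senescence, a lasting arrest of the cell cycle.

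The cells were HT-1080, an established line from a human fibrosarcoma, in 5 groups of 3 libraries. Cycling cells in the vehicle dimethyl sulfoxide (DMSO), labelled 6 h, had not been induced into senescence. The 4 senescent groups had all expressed a dominant negative mutant of TRF2, the telomere-capping protein encoded by TERF2, for 6 days. They then received DMSO for 6 h, 1 uM GNF-7 for 6 h, DMSO for 24 h, or 1 uM GNF-7 for 24 h. GNF-7 is a small-molecule kinase inhibitor. There was no group of cycling cells with GNF-7 and none of cycling cells at 24 h. All groups came from 1 cell line, and in bulk RNA fewer expressing cells and less RNA per cell cannot be told apart. The labels call the libraries biological replicates without saying what was separate. P-values therefore set a difference against the spread between these libraries only, and that spread was estimated with information shared across genes.

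Library totals ranged from 25991007 to 32323393 counts. TERF2, which checks the labels, had a mean of 58.2 ± 3.65 CPM (SD, n = 3) while cycling and 287 ± 8.17 CPM in the senescent vehicle group at 6 h. CPM are read counts scaled to a common library size and corrected for composition. Reads of the mutant and of the cell's own transcript are summed in these counts. TERF2 was lower after GNF-7, at 222 ± 8.60 CPM at 6 h, and at 132 ± 5.38 against 220.0 ± 7.26 CPM in vehicle at 24 h, and its part in the results for GNF-7 was not tested. The share of counts in mitochondrial genes also moved with the groups. It ran from 3.75 to 5.01% in cycling libraries, 11.2 to 12.4% in senescent vehicle and 13.2 to 15.3% in GNF-7 libraries at 6 h, and 15.1 to 18.7% in vehicle and 22.6 to 24.1% in GNF-7 libraries at 24 h. With mitochondrial genes left out of the scaling, the numbers of members called in senescence and with GNF-7 at either time stayed the same. Those higher and lower were 29 and 0 in senescence, 21 and 1 with GNF-7 at 6 h and 16 and 6 at 24 h. Calls did change in the tests across time. CCNG1 became lower for the change of the drug effect with time (-0.15), and GADD45A lost its call between the vehicle times (0.10, adjusted p 0.061). Of all genes called in these tests, 38.58% and 46.29% were higher, against 41.46% and 49.93% with mitochondrial genes in the scaling. Of 7 mesenchymal markers, VIM, FN1, COL6A1, COL6A2, LGALS1 and CDH2 were at 53.8 CPM or more in every library, and S100A4 was at 3.10 CPM or less. Markers of epithelial, leukocyte, endothelial and erythroid cells had at most 32 counts each in any library, and none of the 6 epithelial and leukocyte markers EPCAM, CDH1, KRT5, KRT14, PTPRC and CD3E had more than 7. The proliferation marker MKI67 was highest in the cycling group, with 509 ± 24.3 CPM, and had 149 ± 3.35 and 114 ± 1.84 CPM with vehicle and GNF-7 in senescence at 6 h, and 125 ± 4.72 and 39.1 ± 4.34 CPM at 24 h.

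The DNA around the start sites of the members was searched for the p53 half-site consensus, which has 10 bases and is its own reverse complement, so a single scan covers both strands. RefSeq promoter windows on GRCh38.p14, from 250 bases before to 50 bases after each start, were found for 25 of the 31 members (34 windows). ASCC3, TP53INP1, FBXO22, RRM2B, GADD45A and PHLDA3 had none in the table. An exact half-site lay in a window of 4 members (PLK2, DDB2, AEN and FDXR) and in 2329 of all 35116 windows (6.63%). A 20-base match to both half-sites end to end, with at most 2 mismatches and the 4 invariant C and G bases kept, lay in windows of 3 members (MDM2, DDB2 and AEN) and in 100 of all windows (0.285%). The 5 members with a match are shown because they hold the searched motif and include PLK2, the member that fell most. Matches are in capitals, each sequence reads 5′ to 3′ on the strand of its gene, and a match is a description of letters and not evidence of binding.
MDM2: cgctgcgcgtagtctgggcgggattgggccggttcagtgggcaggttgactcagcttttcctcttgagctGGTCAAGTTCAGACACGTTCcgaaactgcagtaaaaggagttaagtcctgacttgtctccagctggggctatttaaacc
AEN: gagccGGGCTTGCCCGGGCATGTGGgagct
DDB2: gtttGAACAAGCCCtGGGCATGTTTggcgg
FDXR: gggcaggagcGGGCTTGCCCtgcggagcag
PLK2: tggcgggacaAGACTTGCTTcccggccacg

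The MDM2 stretch is chr12:68808853-68809001 on the plus strand, 149 bases upstream of the inner first exon, within an intron of the longer transcripts in GENCODE 29. Its 20-base match, with 2 mismatches, covers positions -94 to -75 from the more upstream of the RefSeq starts there, which lies a few bases downstream of the printed stretch. The AEN stretch, chr15:88621301-88621330 on the plus strand, has a 20-base match with 2 mismatches at -34 to -15 from the RefSeq start. In DDB2, chr11:47214975-47215004 on the plus strand, 2 exact half-sites lie 1 base apart at positions 6 to 26, an arrangement of 2 exact half-sites at most 13 bases apart that only 10 of all windows held (0.0285%). The 20-base match of DDB2, at -5 to 15 with 1 mismatch, begins before the printed stretch and ends with the first of these half-sites. The FDXR stretch (chr17:74872986-74873015, minus strand) and the PLK2 stretch (chr5:58460199-58460228, minus strand) each hold 1 exact half-site, at -11 to -2 and at -132 to -123.

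Levels were compared between members only per length, as RPKM, which divides CPM by the exon length in kilobases, with exon lengths from GENCODE 29. Over the 5 groups the highest mean levels were those of GADD45A at 83.0 RPKM and CCNG1 at 78.5 RPKM, and the lowest were TIGAR at 7.20 RPKM and MDM4 at 3.27 RPKM. The median member was at 15.2 RPKM in cycling cells, 25.1 RPKM in senescent vehicle cells and 28.5 RPKM in GNF-7 cells at 6 h. It was at 28.0 and 20.7 RPKM in vehicle and GNF-7 cells at 24 h. The gene at the median changed with the group: ZMAT3, DRAM1, ZMAT3, XPC and AEN in that order. These medians thus do not follow a single gene. The members' median log2 fold change with GNF-7 at 24 h was 0.18. The member with the fewest reads, the non-coding RNA TP53TG1, had at least 99 counts in every library.

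**Figure D1:**
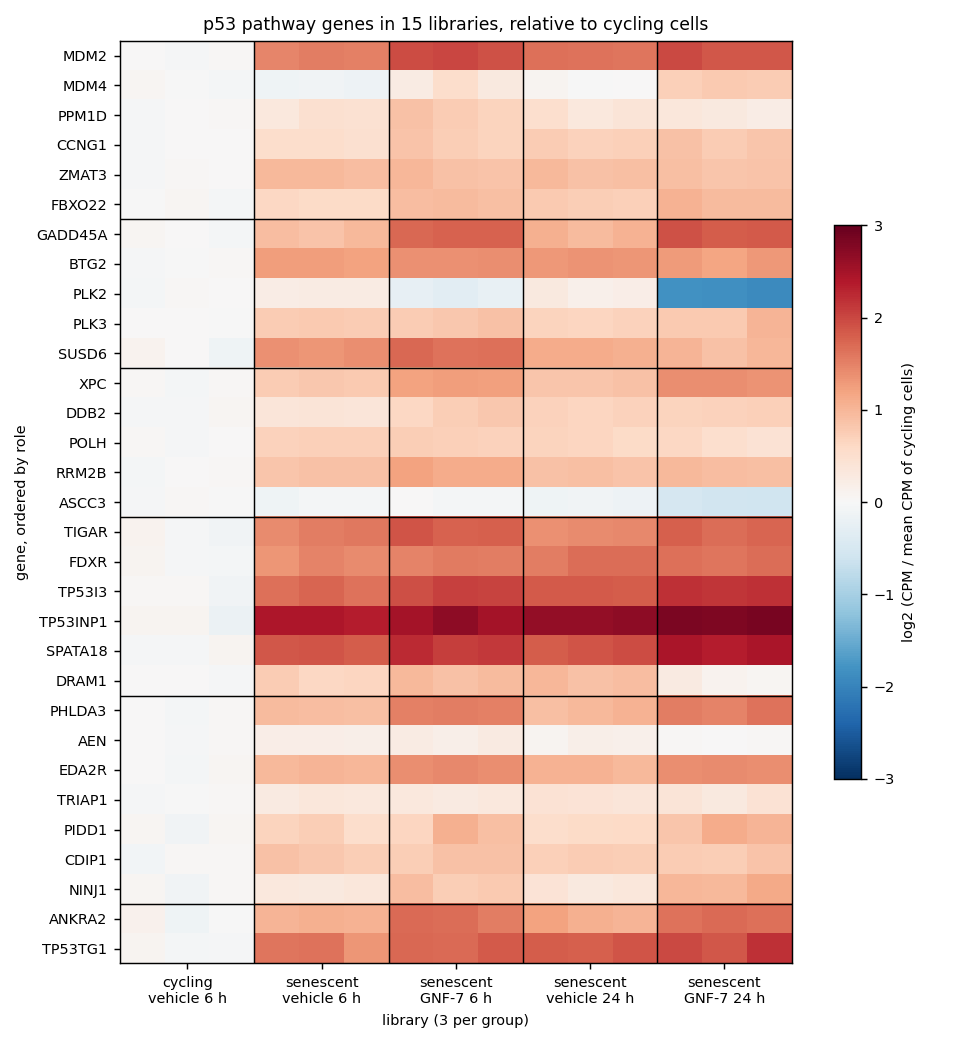
Heat map of the 31 genes (rows, in 6 blocks by role) in 15 libraries (columns, 3 per group). Colour is log2 of CPM over the mean CPM of the cycling libraries, and TP53INP1 and SPATA18 are the darkest rows in senescent cells, while PLK2 is blue in the 3 GNF-7 libraries at 24 h.

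The first comparison asked how these genes differed between senescent and cycling cells, both in vehicle at 6 h. Expression was higher in senescent cells for 29 of the 31 genes at an adjusted p under 0.05 (called), against 35.6% of all 18563 genes tested, and lower for 0, against 34.4%. MDM4 and ASCC3 were not called, and scaling to total counts alone turned their negative values positive (0.00579 and 0.0544). At an unadjusted p under 0.05 edgeR put 1 member lower, ASCC3; limma voom called it and DESeq2 called 0. The rise was at least 2-fold for 10 members and the fall for 0, against 18.5% and 7.56% of all genes, and with edgeR, DESeq2 and limma voom alike 0 fell that far, also at an unadjusted p. The median log2 fold change of the members was 0.81, against 0.06 for all genes. The libraries of all 31 members, the uncalled MDM4 and ASCC3 included, did not overlap between the groups. Lack of overlap thus did not set the 29 called members apart, and its share over all genes was not computed.

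In the negative feedback group 5 of 6 genes were higher. MDM2 (ENSG00000135679, GRCh38 chromosome 12, 68808176 to 68850686, plus strand), the ubiquitin ligase that marks p53 for degradation, was at 232, 223 and 234 CPM in the cycling libraries and 631, 668 and 657 CPM in the senescent libraries. Every senescent library lay far above every cycling library, and the log2 fold change was 1.504 (SE 0.0368, adjusted p 7.36e-43). MDM4, a relative of MDM2 that binds and inhibits p53, was at 31.8, 30.3 and 29.4 CPM in cycling and 27.8, 28.3 and 27.5 CPM in senescent libraries. Here the senescent libraries lay just below the cycling ones, and the log2 fold change of -0.13 (SE 0.0645, adjusted p 0.0743) did not pass the test. ZMAT3, an RNA-binding zinc finger protein, rose by 0.95 on the log2 scale, from 147 ± 4.02 to 285 ± 5.11 CPM. Rises of FBXO22, a substrate receptor of a ubiquitin ligase (0.59), CCNG1, which encodes cyclin G1 (0.51), and PPM1D, the phosphatase WIP1 that removes damage marks from p53 and its kinases (0.42), were smaller. Exons of FBXO22 overlap those of NRG4 on the other strand over 16.2% of their length.

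Per length, MDM2 exceeded MDM4 by a factor that changed with the group. The ratio of their RPKM was 6.06, 6.11 and 6.61 in the cycling libraries and 18.8, 19.6 and 19.8 in senescent vehicle libraries at 6 h. With GNF-7 at 6 h it was 20.4, 17.5 and 19.0, and in vehicle at 24 h 18.7, 19.5 and 19.0. With GNF-7 at 24 h it was 15, 13.1 and 13.4. The ratio was thus lowest in the cycling libraries, and the GNF-7 libraries at 24 h lay between them and the other senescent libraries without overlap. These ratios are given as a description without a test.

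All 5 kinases and brakes rose. SUSD6, a membrane protein also described as a p53-responsive growth brake, was at 29.9, 28.3 and 25.4 CPM in cycling and 72.0, 69.5 and 72.7 CPM in senescent libraries, a log2 fold change of 1.36 (SE 0.0546, adjusted p 1.06e-31). BTG2, an antiproliferative cofactor of mRNA deadenylation, rose by 1.24 on the log2 scale, from 43.2 ± 1.24 to 102 ± 2.12 CPM. GADD45A, a small stress sensor that binds cell-cycle and repair proteins, was at 75.0, 73.0 and 68.8 CPM in cycling and 137, 129.9 and 141 CPM in senescent libraries (log2 fold change 0.91, SE 0.0422, adjusted p 1.68e-28). The 2 polo-like kinases, which act in stress checkpoints, differed in size: PLK3 rose by 0.77 and PLK2 by 0.23 (0.37 with scaling to total counts). PLK2 had 279, 298 and 294 CPM in the cycling libraries and 339.7, 342 and 344 CPM in the senescent ones, which were all higher.

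Of the repair genes 4 of 5 rose. RRM2B, the p53-inducible subunit of ribonucleotide reductase, rose by 0.86 on the log2 scale, from 118 ± 4 to 214 ± 4.80 CPM. XPC, which finds damage for nucleotide excision repair, rose by 0.79, from 75.0 ± 2.697 to 129 ± 2.02 CPM, and genes on the other strand, among them LSM3, cover 39.0% of its exons. POLH, the translesion polymerase eta, and DDB2, a sensor of ultraviolet damage, rose by 0.70 and 0.37. ASCC3, a helicase that acts in alkylation repair and on stalled ribosomes, was at 199, 208 and 204 CPM in cycling and 188, 196 and 196 CPM in senescent libraries. The senescent values lay below the cycling ones by a log2 fold change of -0.08 (SE 0.0375, adjusted p 0.0574), which did not pass the test.

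The metabolic and mitochondrial group held the largest rises, with 6 of 6 genes higher and 5 of them at least 2-fold. TP53INP1 (ENSG00000164938, GRCh38 chromosome 8, 94925972 to 94949411, minus strand), a stress protein that takes part in autophagy and in p53 activation, was at 15.97, 15.9 and 13.4 CPM in cycling and 80.9, 80.4 and 77.5 CPM in senescent libraries. Its log2 fold change of 2.40 (SE 0.0591, adjusted p 3.05e-42) was the largest among the 31. SPATA18, also called Mieap, a protein of mitochondrial quality control, was at 10.9, 10.9 and 11.8 CPM in cycling and 41.0, 41.1 and 39.1 CPM in senescent libraries, a log2 fold change of 1.85 (SE 0.0679, adjusted p 1.16e-33). TP53I3, a quinone oxidoreductase, rose by 1.68, TIGAR, a phosphatase that lowers glycolytic flux, by 1.51, and FDXR, the mitochondrial ferredoxin reductase, by 1.42 on the same scale. TIGAR shares 42.6% of its exons with an annotated gene on its own strand. DRAM1, a lysosomal membrane protein of autophagy, had the smallest rise of the group, 0.69, from 66.0, 65.5 and 64.1 CPM in cycling to 111, 101 and 102 CPM in senescent libraries.

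Of the death and survival genes 7 of 7 rose, none of them by 2-fold. EDA2R, a receptor of the tumour necrosis factor receptor family, was at 49.95, 47.6 and 51.5 CPM in cycling and 96.9, 101 and 98.9 CPM in senescent libraries (log2 fold change 0.99, SE 0.0437, adjusted p 1.21e-29). PHLDA3, which represses the survival kinase AKT, rose by 0.92, and an annotated gene on its own strand covers 19.1% of its exons. CDIP1, a pro-apoptotic p53 target, rose by 0.81 and PIDD1, the scaffold of the caspase-activating PIDDosome, by 0.64. NINJ1, which takes part in rupture of the plasma membrane (0.31), TRIAP1, a small mitochondrial protein that opposes apoptosis (0.31), and AEN, an apoptosis-enhancing nuclease (0.19, or 0.32 with scaling to total counts), had the 3 smallest rises of this group. Of the other 2 members, ANKRA2, an ankyrin repeat protein, rose by 1.05, and TP53TG1 by 1.54, from 3.98, 3.61 and 3.62 CPM to 11.4, 11.7 and 9.37 CPM. Genes on the other strand cover 9.18% of the ANKRA2 exons and 32.6% of those of TP53TG1.

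**Figure D2:**
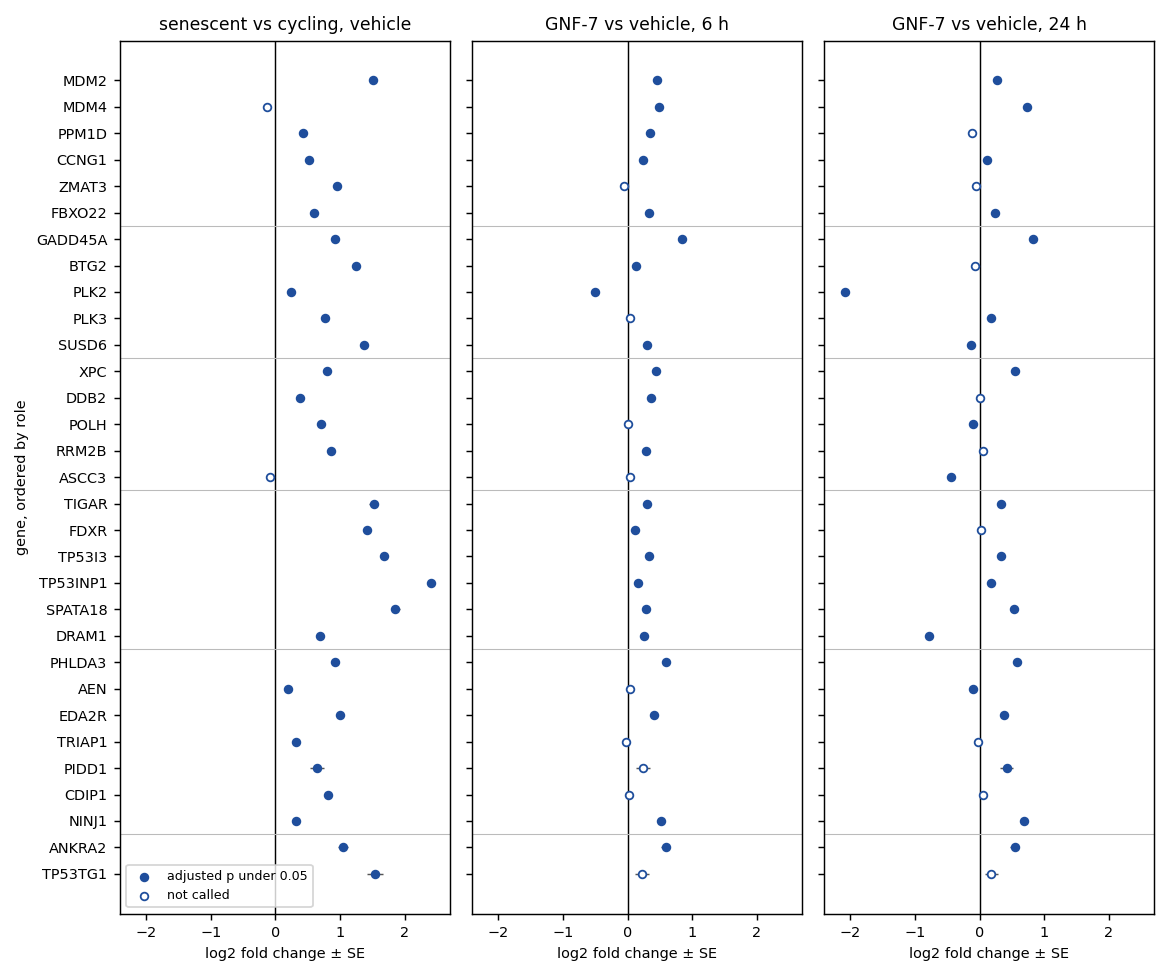
Log2 fold changes with their standard errors (x axes) of the 31 genes (y axis, by role) for senescence and for GNF-7 at 6 h and at 24 h, with filled points for called genes. Filled points lie right of 0 for 29 genes in senescence and for 21 and 16 genes with GNF-7, where PLK2 stands far left at 24 h.

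The second comparison asked what GNF-7 did to these genes in senescent cells after 6 h. It shares the senescent vehicle libraries at 6 h with the first comparison, so their values are given side by side and not as separate evidence. With GNF-7, 21 members were higher and 1, PLK2, was lower, against 17.9% and 21.4% of all genes tested. The median log2 fold change was 0.29, against 0.01 for all genes. Changes of at least 2-fold were called for 0 members in either direction, by edgeR, DESeq2 and limma voom and also at an unadjusted p under 0.05, against 4.16% of all genes higher and 0.566% lower.

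GADD45A changed most. Its GNF-7 libraries were at 239, 244 and 247 CPM against 137, 129.9 and 141 CPM in vehicle, all higher, a log2 fold change of 0.84 (SE 0.0398, adjusted p 4.86e-27) after 0.91 for senescence. In the same role group SUSD6 (0.31) and BTG2 (0.14) rose, and the call of BTG2 was lost without a filter on low counts (0.12, adjusted p 0.0576). PLK3 was at 56.9 ± 2.40 CPM against 55.2 ± 0.242 CPM and was not called. PLK2 was the exception, with 243, 234 and 247 CPM against 339.7, 342 and 344 CPM in vehicle. All GNF-7 libraries lay below the vehicle libraries and also below the cycling libraries, and PLK2 fell by 0.50 on the log2 scale (SE 0.0374, adjusted p 7.57e-18).

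Of the feedback genes 5 of 6 rose. MDM2 went to 889, 927 and 859.6 CPM, above every vehicle library, a log2 fold change of 0.45 (SE 0.0354, adjusted p 5.52e-17). MDM4, not called in senescence, was at 36.0, 43.9 and 37.5 CPM against 27.8, 28.3 and 27.5 CPM in vehicle, and all GNF-7 libraries were higher (log2 fold change 0.49, SE 0.0628, adjusted p 1.89e-09). PPM1D (0.35), FBXO22 (0.33) and CCNG1 (0.24) rose as well, and ZMAT3 was at 275 ± 13.8 CPM against 285 ± 5.11 CPM without a call.

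PHLDA3 and ANKRA2 had the next largest rises. PHLDA3 was at 228, 231 and 229 CPM against 156, 151 and 149.7 CPM in vehicle (log2 fold change 0.59, SE 0.0396, adjusted p 8.22e-20), and ANKRA2 at 36.1, 35.8 and 32.5 CPM against 22.7, 23.5 and 23.0 CPM (log2 fold change 0.59, SE 0.0684, adjusted p 8.28e-11), with no overlap of libraries for either gene. Of the death and survival genes 3 of 7 were called, NINJ1 (0.51), EDA2R (0.42) and PHLDA3, all higher. PIDD1 was not called, and its GNF-7 libraries were spread over 61.9, 83.7 and 74.5 CPM against 62.9, 66.3 and 57.2 CPM in vehicle. Without GNF-7 replicate 1 it was called at 0.35 (adjusted p 4.7e-05). AEN, TRIAP1 and CDIP1 were not called either, and neither was TP53TG1, at 12.3, 12.2 and 13.5 CPM against 11.4, 11.7 and 9.37 CPM. With only genes at a mean of 5 CPM or more in the fit, 25 members were called higher. Those gained were PIDD1 (0.29), TP53TG1 (0.28), AEN (0.10) and ASCC3 (0.09). In that fit 6042 of 11234 genes were called, 50.23% of them higher, against 7286 of 18563 and 45.5% without that limit.

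In the repair group XPC (0.44), DDB2 (0.35) and RRM2B (0.29) rose, while POLH and ASCC3, at 129 ± 2.01 and 199 ± 4.69 CPM with GNF-7, were not called. All 6 metabolic and mitochondrial genes rose, by 0.11 for FDXR to 0.33 for TP53I3. TP53INP1, which rose most in senescence, had 84.9, 96.9 and 84.6 CPM against 80.9, 80.4 and 77.5 CPM (log2 fold change 0.16, SE 0.0486, adjusted p 0.00715). Each of the calls of FDXR and TP53INP1 was lost when certain single libraries were left out. FDXR, at 0.11 (SE 0.0439, adjusted p 0.0362) with all libraries, was not called without vehicle replicate 1 (0.07, adjusted p 0.281) or 3 (0.12) or without GNF-7 replicate 2 (0.10) or 3 (0.11). TP53INP1 was not called without vehicle replicate 3 (0.14, adjusted p 0.0531) or GNF-7 replicate 2 (0.10, adjusted p 0.113).

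**Figure D3:**
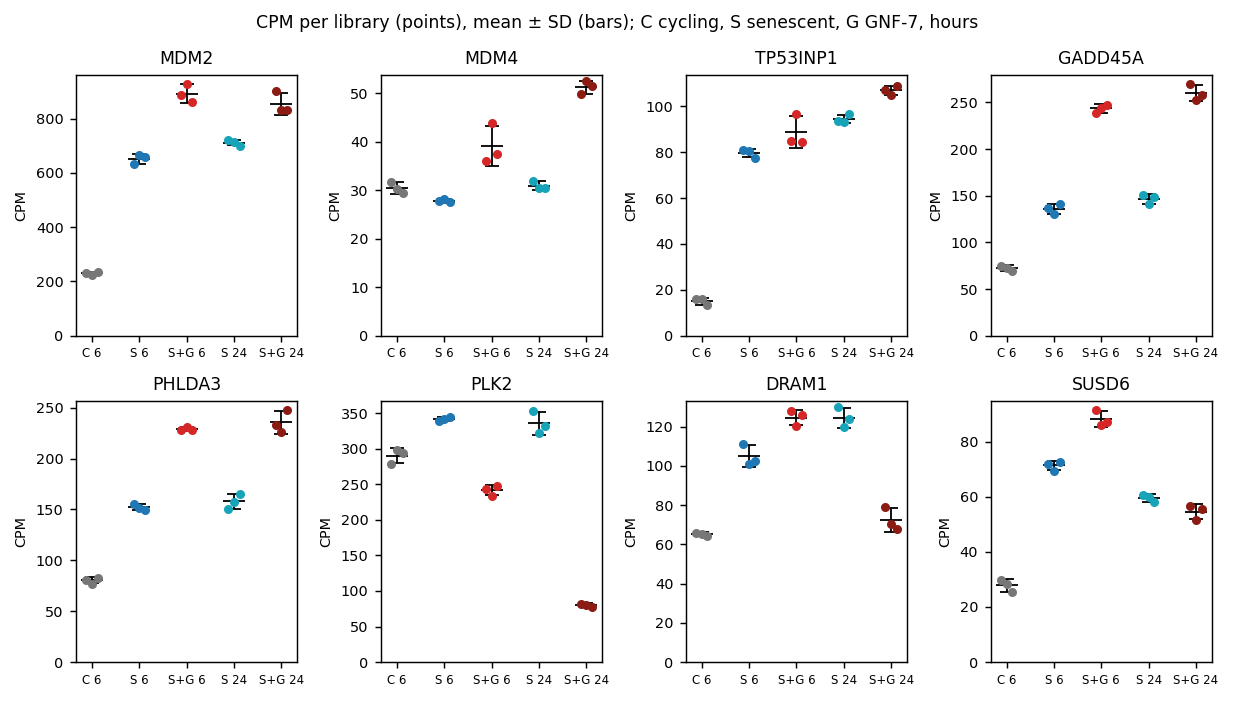
CPM (y axes, from 0) of 8 genes in each library (points) with the mean and SD of 3 libraries (bars), by group and hours (x axes). MDM2 and GADD45A rise in senescent cells and again with GNF-7, PLK2 falls to about 80 CPM and DRAM1 to about 70 CPM with GNF-7 at 24 h.

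After 24 h of GNF-7, compared with vehicle at 24 h, 16 members were higher and 6 lower, against 29.3% and 29.7% of all genes. The share lower was thus below, and the share higher above, that of all genes tested, and 9 members were not called. The median log2 fold change of the members was 0.18, against 0.04 for all genes. A rise of at least 2-fold was called for 0 members by edgeR, DESeq2 and limma voom, also at an unadjusted p under 0.05, and such a fall for 1, PLK2, against 10.3% and 3.92% of all genes. This comparison uses other libraries than those at 6 h. Of the 31 genes, 14 were higher at both times, 1 was lower at both, 5 were higher at 6 h and not called at 24 h, and 2, DRAM1 and SUSD6, were higher at 6 h and lower at 24 h. In this fit PIDD1 and PLK3 were called higher at 24 h alone, AEN, ASCC3 and POLH lower at 24 h alone, and 4 genes (CDIP1, TP53TG1, TRIAP1 and ZMAT3) at neither time. A call at 1 time alone does not show that the effects differed. The difference between the times, tested below, was not called for PIDD1, PLK3 or POLH, nor for FDXR, which was called at 6 h alone. PIDD1 was also called higher at 6 h under some alternatives. It shares no library with the senescence comparison either, and of the 29 genes that rose there 15 were higher and 5 lower with GNF-7 at 24 h. The shares of all genes with such joint calls were not computed, so these joint counts describe the members alone.

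PLK2 (ENSG00000145632, GRCh38 chromosome 5, 58453982 to 58460260, minus strand) fell furthest. It was at 354, 321 and 332 CPM in vehicle and 81.9, 80.8 and 76.9 CPM with GNF-7, so every GNF-7 library lay far below all vehicle and all cycling libraries, and it fell by 2.07 on the log2 scale (SE 0.0402, adjusted p 7.63e-48). PLK3 was at 55.3, 55.3 and 65.3 CPM against 51.7, 50.8 and 52.5 CPM and was called higher (log2 fold change 0.18, SE 0.0541, adjusted p 0.00289), a call lost without GNF-7 replicate 3 (0.10, adjusted p 0.152). GADD45A was at 269.7, 253 and 258 CPM against 151, 141 and 148 CPM in vehicle, with all GNF-7 libraries higher (log2 fold change 0.83, SE 0.0397, adjusted p 2.43e-27). BTG2 was not called, at 103 ± 4.08 CPM against 108 ± 1.49 CPM.

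DRAM1 (ENSG00000136048, GRCh38 chromosome 12, 101877351 to 102012130, plus strand) was the other member with a large fall. Vehicle libraries were at 129.8, 119.7 and 124 CPM and GNF-7 libraries at 78.96, 70.6 and 67.6 CPM, a log2 fold change of -0.78 (SE 0.0471, adjusted p 3.04e-22). The GNF-7 libraries lay below all vehicle libraries and just above the cycling libraries, which were at 66.0, 65.5 and 64.1 CPM. Among the other metabolic and mitochondrial genes SPATA18 (0.53), TP53I3 (0.33), TIGAR (0.33) and TP53INP1 (0.18) were higher. FDXR, at 144 ± 3.23 CPM against 142 ± 8.83 CPM, was not called.

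In the feedback group 4 of 6 genes were higher and 0 lower, with 0 lower also by DESeq2 and limma voom and at an unadjusted p under 0.05. MDM4 was at 49.8, 52.5 and 51.4 CPM against 32.0, 30.4 and 30.6 CPM, with every GNF-7 library higher, and its log2 fold change of 0.73 (SE 0.0614, adjusted p 3.66e-16) was the largest of the group. MDM2 was at 902, 833 and 830.2 CPM against 720.0, 715 and 701 CPM (log2 fold change 0.26, SE 0.0353, adjusted p 2.04e-09). FBXO22 (0.24) and CCNG1 (0.11) rose less, and the call of CCNG1 was lost without vehicle replicate 2 (0.09) or 3 (0.10) or GNF-7 replicate 1 (0.08). PPM1D was at 37.7, 36.2 and 34.5 CPM against 42.0, 36.9 and 38.6 CPM and was not called, and without vehicle replicate 2 it was called lower at -0.16 (adjusted p 0.0348).

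NINJ1 was at 61.8, 61.1 and 67.6 CPM against 41.2, 37.7 and 38.9 CPM (log2 fold change 0.69, SE 0.0570, adjusted p 1.17e-16) and PHLDA3 at 233, 226 and 248 CPM against 151, 158 and 165 CPM (log2 fold change 0.58, SE 0.0396, adjusted p 4.53e-20). Both were higher in every GNF-7 library, as were EDA2R (0.37), PIDD1 (0.42) and ANKRA2 (0.54). XPC rose in the repair group, to 195 ± 3.57 from 134 ± 2.22 CPM (0.54). ASCC3, which differed little elsewhere, was at 144, 136 and 134 CPM with GNF-7 against 186, 189 and 184 CPM in vehicle, lower in every library (log2 fold change -0.44, SE 0.0381, adjusted p 1.34e-15). DDB2, RRM2B, TRIAP1 and CDIP1 were not called. With only genes at a mean of 5 CPM or more in the fit, 21 members were higher and 3 lower. Those gained as higher were RRM2B (0.16), CDIP1 (0.15), DDB2 (0.11), FDXR (0.12) and TP53TG1 (0.28). In that fit 8142 of 11234 genes were called, 51.02% of them higher, against 10940 of 18563 and 49.67% without that limit.

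The other 3 falls were small, and their calls were lost when certain single libraries were left out and with another scaling. SUSD6 was at 56.8, 51.5 and 55.4 CPM against 60.7, 59.9 and 58.0 CPM (log2 fold change -0.13, SE 0.0515, adjusted p 0.0308), POLH at 122, 111 and 106 against 125, 123 and 117 CPM with overlapping libraries (log2 fold change -0.11, SE 0.0427, adjusted p 0.0246), and AEN at 125, 123 and 124 against 129, 137 and 135 CPM (log2 fold change -0.11, SE 0.0392, adjusted p 0.0176). SUSD6 was not called without vehicle replicate 1 (-0.12) or 2 (-0.13) or GNF-7 replicate 2 (-0.09). POLH was not called without vehicle replicate 1 (-0.09) or 2 (-0.10) or GNF-7 replicate 2 (-0.10) or 3 (-0.07), nor AEN without vehicle replicate 2 (-0.09). With scaling to total counts alone all 3 lost their call, which left PLK2, DRAM1 and ASCC3 as the members lower at 24 h.

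The change of the GNF-7 effect with time was tested as the difference between the effects at 24 h and at 6 h. It was lower at 24 h for 10 members and higher for 2, against 18% and 12.8% of all genes, and 19 members were not called. A difference of at least 2-fold was called lower for PLK2 and DRAM1 (2.06% of all genes) and higher for 0 members by edgeR, DESeq2 and limma voom, also at an unadjusted p under 0.05 (2.93%). PLK2 had a difference of -1.57 (SE 0.0545, adjusted p 1.07e-32) and DRAM1 of -1.03 (SE 0.0658, adjusted p 4.27e-20), the latter from a rise at 6 h and a fall at 24 h. ASCC3 (-0.48), PPM1D (-0.47), SUSD6 (-0.43), DDB2 (-0.34), RRM2B (-0.23), BTG2 (-0.20), MDM2 (-0.19) and AEN (-0.15) were the other 8 lower ones. For DDB2, GNF-7 libraries were at 162, 175 and 181 CPM at 6 h, against 134, 136 and 135 CPM in vehicle without overlap. At 24 h they were at 165, 167 and 170.1 CPM, against 167, 163 and 169 CPM in vehicle with overlap.

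The 2 members with a higher effect at 24 h were SPATA18 (0.24, adjusted p 0.0152) and MDM4 (0.24, adjusted p 0.0329). The 2 feedback genes MDM2 and MDM4 thus had differences of opposite sign. The calls of SPATA18, MDM4 and AEN each ended when single libraries were left out. SPATA18 lost it without GNF-7 replicate 2 at 6 h or vehicle replicate 1 at 24 h (0.20 each). With each of the 12 libraries of the 4 senescent groups dropped in turn, MDM4 lost it 8 times (0.18 to 0.23) and AEN 7 times (-0.15 to -0.13). For GADD45A, PHLDA3, EDA2R, ANKRA2, TIGAR and TP53I3, which rose at both times, the difference was not called, which does not show that the effects were equal.

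**Figure D4:**
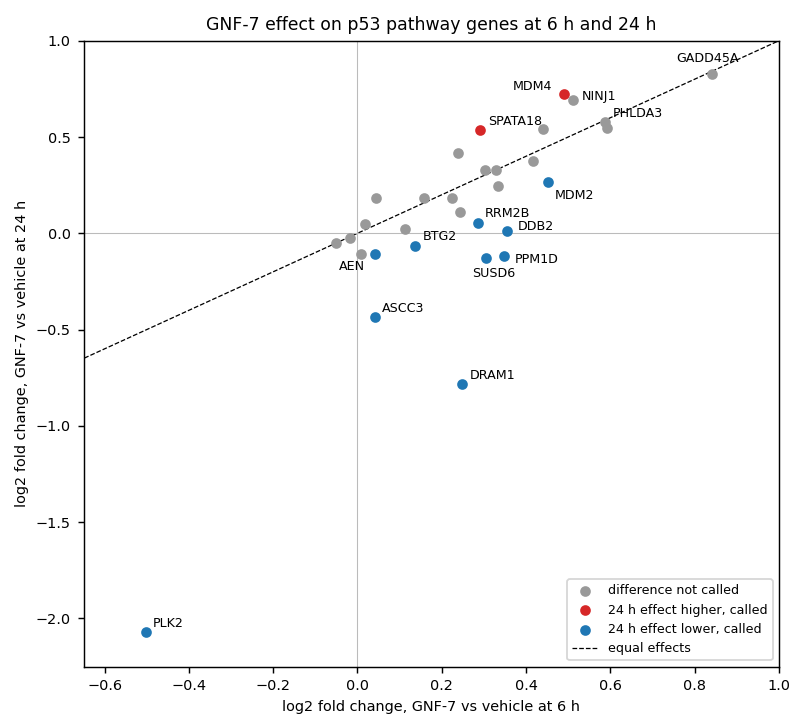
Log2 fold change for GNF-7 against vehicle at 6 h (x axis) and at 24 h (y axis) for each of the 31 genes, with a dashed line of equal effects and colours for the called difference. The 10 blue genes lie below the line, PLK2 and DRAM1 farthest, and SPATA18 and MDM4 lie above it in red.

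Vehicle cells at 24 h and at 6 h were compared as the background of time in senescent cells. Of the 31 members 10 were higher and 1, SUSD6, was lower at 24 h, against 9.26% and 9.29% of all genes. Changes of at least 2-fold were called for 0 members by edgeR, DESeq2 and limma voom, also at an unadjusted p under 0.05, against 0.302% of all genes higher and 0.232% lower. DDB2 had 134, 136 and 135 CPM at 6 h and 167, 163 and 169 CPM at 24 h, all higher (log2 fold change 0.30, SE 0.0401, adjusted p 3.56e-08). TP53TG1 (0.30), DRAM1 (0.25), TP53INP1 (0.25), FDXR (0.22), CCNG1 (0.21), TP53I3 (0.17), FBXO22 (0.15), MDM2 (0.13) and GADD45A (0.11) were the other 9 higher ones, and SUSD6 fell by 0.26 on the log2 scale (adjusted p 7.66e-05). With scaling to total counts 3 members, DDB2 (0.19), DRAM1 (0.14) and TP53INP1 (0.14), were called higher and 9 lower. All genes moved too: 5019 of 18563 were called, 12.49% of them higher, against 3443 and 49.93% with the correction for composition. Without vehicle replicate 1 at 6 h the calls of MDM2 (0.11, adjusted p 0.0607) and GADD45A (0.12) were lost. GADD45A, whose libraries overlapped, also lost its call without vehicle replicate 2 at 6 h (0.08) or replicate 1 (0.09) or 3 (0.10) at 24 h. Nor was GADD45A called with mitochondrial genes left out of the scaling (0.104, adjusted p 0.061) or without a filter (0.0994, adjusted p 0.165). TP53TG1 lost its call without vehicle replicate 3 at 6 h (0.21) or replicate 1 (0.31) or 3 (0.28) at 24 h.

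Other targets of p53 were read from a list of 34 genes that share none with the members. Like the members, this list and that of the p53 regulators below were chosen with earlier results of these data known. In senescence 25 of the 34 were higher and 6 lower, against 35.6% and 34.4% of all genes, and their median log2 fold change was 0.72. The 3 with the smallest p were GDF15, a stress-induced cytokine (2.39), CDKN1A (1.43) and TRIM22, an antiviral ubiquitin ligase (1.43). With GNF-7 at 6 h 17 were higher and 5 lower (17.9% and 21.4% of all genes), led by SESN2, a stress-induced inhibitor of mTORC1 signalling (1.47), PMAIP1, the pro-apoptotic protein NOXA (0.73), and E2F7, a transcriptional repressor of the cell cycle (0.72). At 24 h the list was split, 14 higher and 15 lower (29.3% and 29.7% of all genes), with SESN2 (1.67), E2F7 (1.00) and GDF15 (0.57) leading, all 3 higher.

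CDKN1A stood at 186 ± 2.54 CPM in the cycling and 501 ± 8.96 CPM in the senescent vehicle group. With GNF-7 it was 518 ± 17.4 CPM at 6 h, not called, and 468 ± 8.95 CPM at 24 h against 559.8 ± 8.93 CPM in vehicle, lower by a log2 fold change of -0.26. The difference between the times was -0.31. Of the 34 genes, 16 had a lower effect at 24 h than at 6 h and 5 a higher one, against 18% and 12.8% of all genes. FAS, a death receptor (-0.59), and IKBIP (-0.51) led the lower ones, and ISCU, a scaffold for iron-sulfur clusters, was higher (0.41). Between the vehicle times 13 were higher and 6 lower (9.26% and 9.29% of all genes), and RAP2B, FUCA1 and RPS27L had the smallest p (0.30, 0.39 and 0.20).

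Of 21 genes whose products regulate p53, 18 were lower and 2 higher in senescence, against 34.4% and 35.6% of all genes, with a median of -0.42, and the leading 3 were the checkpoint kinase CHEK1 (-1.77), the ribosomal protein RPL5, which can restrain MDM2 (-0.60), and the deubiquitinase USP10 (-0.76).

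With GNF-7, 2 regulators were higher and 9 lower at 6 h (17.9% and 21.4% of all genes), led by HIPK2, a kinase of p53 (-0.40), the deacetylase HDAC1 (-0.27) and the damage kinase ATR (-0.27). At 24 h 4 were higher and 13 lower (29.3% and 29.7% of all genes), led by HDAC1 (-0.56), ATR (-0.42) and the ubiquitin ligase HUWE1 (-0.26). The effect was lower at 24 h than at 6 h for 5 and higher for 1, near the 18% of all genes for the former and against 12.8% for the latter, with HDAC1 (-0.29) and TRIM24, a ubiquitin ligase for p53 (-0.43), leading. Between the vehicle times 3 were higher and 5 lower (9.26% and 9.29% of all genes), led by RPL23 (0.22), the acetyltransferase CREBBP (-0.28) and RPL11 (0.20).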

How the data were processed

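Messenger RNA of 15 HT-1080 libraries was sequenced, and the authors deposited 1 table of raw read counts per Ensembl gene. The submitters' processing notes name bcl2fastq 2.20.0.422, STAR 2.7.9a, featureCounts 1.5.1 and GRCh38. Per the labels' protocols the kit was stranded. Which annotation was counted, and with what strand setting, is not given in the sources used here, so genes that overlap others are uncertain. Coordinates, exon lengths and overlaps come from GENCODE 29. Of 60673 rows, 3 lines of 1 broken entry were left out. The name table held 99.55% of the 60670 identifiers.

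The test was edgeR's quasi-likelihood F test (4.0.16, R 4.3.3, robust) after filterByExpr (18563 genes) and TMM scaling, in 1 fit of all 15 libraries with a term per group and 5 contrasts. P-values were adjusted by Benjamini-Hochberg over all genes tested, and values under 0.05 were calls. The biological coefficient of variation was 4.64%. The alternatives were RLE scaling, total counts, TMM without mitochondrial genes, no filter, a mean of at least 5 CPM, DESeq2 1.42.0, limma 3.58.1 voom, only the groups compared, a replicate block, a 2-fold minimum and leaving out each library. The code was tested on simulated data. Libraries within a group all differed beyond sampling noise.

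The members and the lists were chosen with earlier results of these data known. Named genes are the 31 members, TERF2, CDKN1A and, for each contrast and each of 2 other lists, the 3 genes with the smallest p. Of these, 1 gene is not reported here.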

Additional observations from a re-analysis of the deposited data

Results flagged for a closer look

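The effect of GNF-7 in senescent cells differed between 24 h and 6 h for 12 of the 31 genes by the test of the difference itself (edgeR, adjusted over all genes tested). It was lower at 24 h for 10 and higher for 2, against 18% and 12.8% of all genes. As log2 differences, the effect at 24 h minus that at 6 h, the lower ones were PLK2 at -1.57, DRAM1 at -1.032, ASCC3 at -0.476, PPM1D at -0.465, SUSD6 at -0.4322, DDB2 at -0.3447, RRM2B at -0.2297, BTG2 at -0.2027, MDM2 at -0.1876 and AEN at -0.1483. MDM4 at 0.2362 and SPATA18 at 0.2428 were the higher ones. PLK2 was lower with GNF-7 at both times, while DRAM1 and SUSD6 were higher at 6 h and lower at 24 h. MDM4 and SPATA18 were higher at both. The mitochondrial share of counts was 13.2 to 15.3% with GNF-7 at 6 h and 22.6 to 24.1% at 24 h, and its part in these differences was not tested. Groups of 3 libraries are too small for the test of single outlying samples.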

How the results depend on the processing

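The count of 29 members higher in senescence held under every alternative run except the 2-fold minimum. ASCC3 was called lower there with limma voom and with the replicate block (1 member each), and leaving out single libraries gave 0 to 1. Its log2 fold change became 0.0544 with total counts and 0.0725 with genes under a mean of 5 CPM removed, and that of MDM4 became 0.00579 and 0.0239, none of them called. These 2 settings moved senescence values by up to 0.14 and 0.16 (AEN from 0.19 to 0.32 and 0.34, PLK2 from 0.23 to 0.37 and 0.39), and with total counts the all-gene median went from 0.06 to 0.19. With a 2-fold minimum 10 members were higher in senescence, 0 higher and 0 lower with GNF-7 at 6 h, 0 higher and 1 lower at 24 h, 0 higher and 2 lower for the difference between the times, and 0 in either direction for vehicle. With GNF-7 at 24 h, 3 members instead of 6 were lower with total counts and 3 with the 5 CPM filter. That filter made 21 members instead of 16 higher at 24 h and 25 instead of 21 at 6 h. At 24 h it moved CCNG1 from 0.11 to 0.21, TP53INP1 from 0.18 to 0.28 and PLK3 from 0.18 to 0.28. Of the 11234 genes in that fit, 8142 were called at 24 h, 6042 at 6 h and 5120 for the difference between the times. Of these, 51.02%, 50.23% and 46.54% were higher. For the difference between the times, 1 member instead of 2 was higher without a filter, 1 with DESeq2, 5 with the 5 CPM filter and 1 to 2 without single libraries, and the members' median was 0.006932 with the 5 CPM filter. With total counts 3 members were higher and 9 lower in vehicle at 24 h, and the members' median was -0.05923. The all-gene median went from 0.01 to -0.10. Of all 18563 genes 5019 instead of 3443 were called, and 12.49% instead of 49.93% of the called genes were higher. With GNF-7 at 6 h BTG2 (0.117) and FDXR (0.0917) lost their calls without a filter. With the 5 CPM filter the members named here moved upward by nearly the same log2 amount, about 0.10 at 24 h and 0.05 at 6 h. With total counts the members named for vehicle moved downward by about 0.11 alike. The calls gained and lost there thus went with a shift shared by these members and not with moves of single genes. Where not stated, the cause was not tested.

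For libraries with the same replicate number, deviations from the group mean had correlations across genes from -0.0369 to 0.0579. The labels do not say whether equal numbers share a culture or day, and these correlations cannot decide it. With the replicate block PIDD1 at 6 h (0.23) and CCNG1 for the difference between the times (-0.13) were called, besides ASCC3, and no other call changed. CCNG1 was also called there with RLE scaling (-0.15), with mitochondrial genes left out of the scaling (-0.15), with DESeq2 (-0.15) and without single libraries (GNF-7 replicate 2 or 3 at 6 h, vehicle replicate 2 or GNF-7 replicate 1 at 24 h, -0.18 to -0.15). PIDD1 was also called at 6 h without a filter (0.22), with the 5 CPM filter (0.29), DESeq2 (0.25) and limma voom (0.23). TP53TG1, at 99 counts in its lowest library, was the member with the least depth.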

Other observations

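The members differed in how tightly their libraries agreed. The coefficient of variation of CPM, averaged over the 5 groups, was lowest for XPC (1.92%), AEN (2.03%) and EDA2R (2.09%). It was highest for PIDD1 (8.34%) and TP53TG1 (7.49%). TP53TG1 has the shortest annotated exons of the 31 genes, at 1023 bases, while PIDD1 was at 36.8 CPM or more in every library.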
